A study of Mus musculus with 2 samples.

Results

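The genes described here encode the organic anion and organic cation uptake carriers, the Slco and Slc22 families. They were taken by symbol, as every protein-coding gene of the RefSeq annotation of GRCm38.p6 whose name starts with Slco or Slc22a and a digit. This gave 39 of 21887 protein-coding genes, 14 of the Slco family and 25 of the Slc22 family. Hnf4a, a nuclear receptor of liver, kidney and gut epithelium, was mapped by ChIL-seq, in which an antibody-guided probe directs Tn5 transposase to tag DNA near the protein inside fixed cells. The cells were iHepCs, hepatocyte-like cells made from wild-type C57BL/6J mouse embryonic fibroblasts by retroviral Foxa2 and Hnf4a, and 10000 cells were plated per well. All cells carried both introduced factors, and introduced and endogenous Hnf4a were not told apart. The culture medium was supplemented with dexamethasone at 100 nM, and with HGF and EGF at 20 ng/ml each. The labels give embryo as the tissue and fibroblast as the cell type, which are the cells of origin. The 2 samples are replicates of 1 group, and their peak names put them in the same lot of cells. No comparison between conditions or with a control sample was possible, and the assay measures no expression of marker genes that could check the cell type.

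Slco proteins (OATPs) import bile acids, bilirubin conjugates, thyroid hormones, prostaglandins and many drugs. The Slc22 family holds the OCTs, which carry organic cations, the OCTNs, which carry carnitine and the antioxidant ergothioneine, and the OATs, which carry organic anions. Hepatocytes take up such compounds from blood across the sinusoidal membrane, and proximal tubule cells of the kidney take them up for secretion into urine. Hnf4a is present in both of these cell types, so the known liver carriers were set beside the known kidney carriers.

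Each deposited list gives 1-bp peak summits in mm10 with a score, read as the authors' −log10 q-value. Replicate 1 had 21283 summits with a median score of 7.32, and replicate 2 had 24097 with a median of 6.67. Summits of both lists within 100 bp of each other were joined, and a region that held a summit of each replicate is called shared. There were 9193 shared regions. Distance to a gene end was counted both outward and into the gene, so a region just inside an end counts in both windows. Read depth is unknown from these lists, and without a control the number of summits that mark Hnf4a is unknown too.

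The sequence of a summit could be read at a single carrier promoter, that of Slc22a5. Slc22a5 (Octn2) is the high-affinity carnitine carrier, and its RefSeq promoter window was the only carrier window of those given that held summits of both replicates. The 250 bases before its start site are printed 5′ to 3′ on the gene's strand (GRCm38.p6, minus strand, chr11:53891704-53891953), and the capitals run from the replicate 2 summit to the replicate 1 summit.
Slc22a5: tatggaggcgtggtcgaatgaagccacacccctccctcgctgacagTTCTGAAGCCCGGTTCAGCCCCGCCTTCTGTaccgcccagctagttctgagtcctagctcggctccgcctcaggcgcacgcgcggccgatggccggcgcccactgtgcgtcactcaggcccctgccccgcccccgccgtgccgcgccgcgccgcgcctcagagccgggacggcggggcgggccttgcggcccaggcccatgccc
Counted from the start site, the replicate 2 summit lay at −204 and scored 16.5, and the replicate 1 summit lay at −174 and scored 6.72. The stretch is 73.6% G and C, against a median of 55.6% over 21263 such stretches of protein-coding genes.

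Promoter windows of 250 bases before to 50 after the start were at hand for 34 of the carrier genes, 39 windows in all. They were searched on both strands for the HNF4 motif CAAAGTCCA, its core CAAAGTC, a repeat of AGGTCA spaced by 1 base, the FOXA motif TGTTTAC and the HNF1 palindrome of GTTAAT and ATTAAC spaced by 1 base. The shorter HNF4 core was in the windows of Slc22a3 and Slc22a20, that is in 2 of 39, while 4.14% of all 21263 windows held it. The other searches had no match in the carrier windows, and the shares of all windows were 0.451% for CAAAGTCCA, which contains the core, 3.01% for TGTTTAC, 0.0470% for the AGGTCA repeat and 0.00470% for the HNF1 palindrome. A match describes letters only. Both core matches read on the opposite strand, as the capitals in these stretches show (chr17:12507884-12507950 and chr19:5986327-5986393, both minus strand).
Slc22a3: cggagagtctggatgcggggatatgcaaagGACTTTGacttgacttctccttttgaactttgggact
Slc22a20: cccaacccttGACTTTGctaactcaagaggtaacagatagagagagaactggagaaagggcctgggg
Slc22a3 (Oct3) carries monoamines and other cations, and Slc22a20 (Oat6) is an anion carrier of the olfactory mucosa. Neither window held a summit of either replicate. The shared region of Slc22a3 lay 22018 bp inside the gene from its start.

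Of the 39 carrier genes, 9 had a shared region within 10 kb of a gene end (23.1%), against 20.6% of all protein-coding genes. Replicate 1 alone had summits there for 11 carriers (28.2%), against 39.4% of all genes, and replicate 2 alone for 10 (25.6%), against 41.9%. The carriers with a shared region were therefore at about the share of all genes, while those with a summit of a single list were below it. Within 50 kb of an end the count was 18 carriers (46.2%), against 46.8% of all genes. Replicate 1 reached 27 carriers (69.2%) and replicate 2 reached 25 (64.1%) at this distance, against 69.3% and 72.4% of all genes.

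Inside the gene, 10 carriers had a shared region (25.6%), against 13.7% of all genes. Replicate 1 had summits inside 17 carriers (43.6%) and replicate 2 inside 13 (33.3%), against 26.3% and 28.4% of all genes. Carrier genes are long, with a median of 46926 bp against 17169 bp, so a density is the closer comparison. Carrier bodies held 6.08 shared regions per Mb (15 regions in 2.47 Mb), against 4.18 per Mb over the bodies of all protein-coding genes. Of these 15 regions, Slc22a23 and Slco3a1 held 3 each. By single lists they held 11.8 replicate 1 summits per Mb, against 9.97 per Mb in all genes. The replicate 2 density was 11.3 per Mb in carriers and 11.3 per Mb in all genes, so the higher share of carriers with a replicate 2 summit inside is not seen per length. Including 50 kb on either side, the density was 5.15 per Mb for carriers, against 4.51 per Mb. No test was made of these shares and densities.

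**Figure D1:**
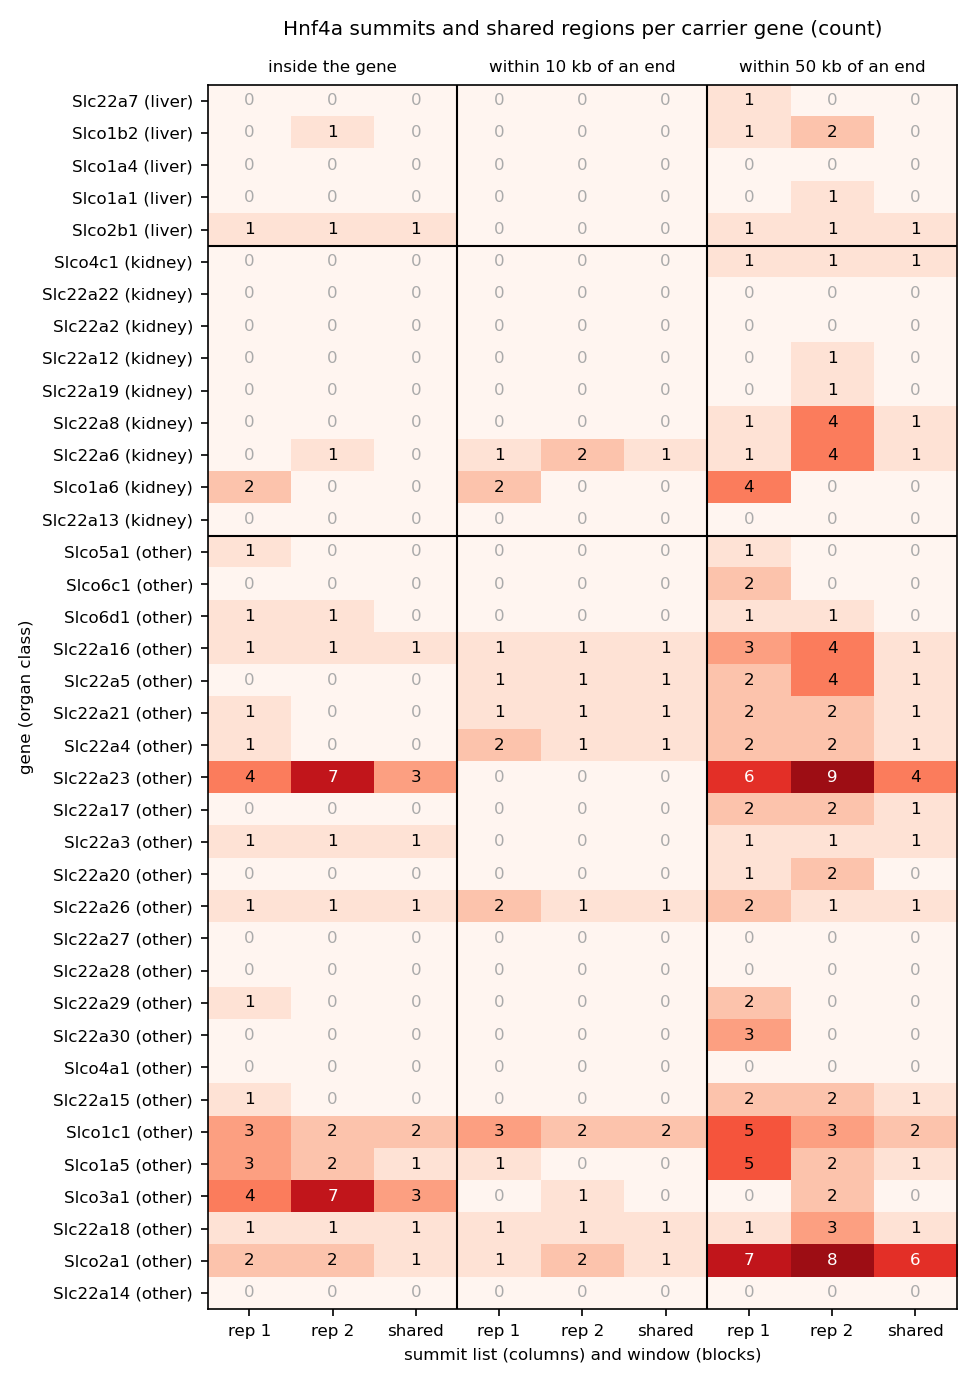
Counts of Hnf4a summits (replicate 1 and replicate 2) and of shared regions for 38 carrier genes, in 3 windows, with genes ordered as liver, kidney and other carriers. The liver carriers have 0 in all columns of the 10 kb block, and Slco2a1 has the most shared regions within 50 kb of an end, 6.

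Around the carriers, bodies plus 50 kb, there were 98 distinct regions, of which 29 were shared, 31 had a replicate 1 summit only and 38 a replicate 2 summit only. Of the replicate 1 summits there, 48.3% were shared (29 of 60, 95% exact binomial interval 35.2 to 61.6), against 43.2% of all replicate 1 summits. Of the replicate 2 summits, 43.3% were shared (29 of 67, interval 31.2 to 56.0), against 38.2% of all. Both intervals, which cover counting error only, include the share of all summits. Over the 29 shared regions the median was 9.44 by the replicate 1 score and 10.3 by the replicate 2 score, against 9.93 and 9.61 over all shared regions. Scores of 10 or more in both replicates were found in 9 of the 29 (31.0%), against 33.8% of all shared regions. The scores around carriers were thus close to those of all shared regions.

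**Figure D2:**
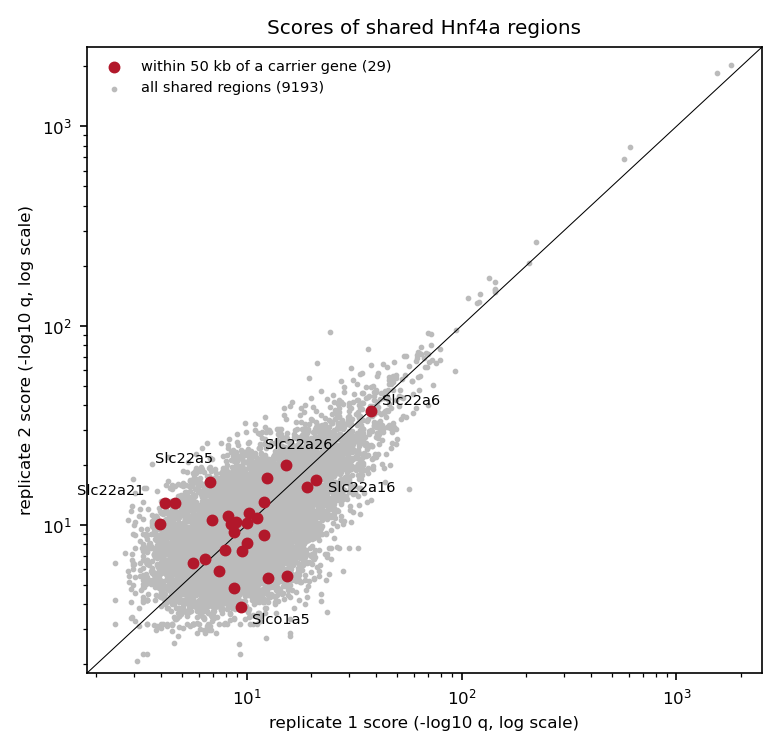
Scores of shared regions in replicate 1 (horizontal) and replicate 2 (vertical), both read as −log10 q and on log scales. The 29 regions around carrier genes are in red over all 9193 in grey, with a line of equal scores. The site beside Slc22a6 (37.9 and 37.3) stands above the other red points, and the red points named Slc22a5 and Slc22a21 lie above the line.

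The list of 6 liver carriers included Slc22a7 (Oat2), Slco1b2, Slco1a4, Slco1a1 and Slco2b1. None of the 6 genes had a shared region within 10 kb of an end, against 20.6% of all genes, and neither replicate alone had a summit there. A count of 0 among 6 genes allows a share of up to 50% by a rough rule, 3 divided by the number of genes. The rule is only approximate for so few genes, and it treats neighbours such as Slco1a4 and Slco1a1 as independent. Only Slco2b1, a carrier of sulfated steroids and drugs, had a shared region inside the gene. That region lies at 99680963 to 99681045 on chromosome 7, 23200 bp from the nearer gene end, and scored 10.0 in replicate 1 and 10.3 in replicate 2. It was the sole summit of either list within 50 kb of that gene.

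Slco1b2 is the mouse carrier closest to the human hepatocyte OATP1B pair. It had no shared region within 50 kb of an end, but its summits just missed the joining distance. A replicate 1 summit 13566 bp upstream of the gene scored 7.78 and a replicate 2 summit 13667 bp upstream scored 4.72, and they stood 101 bp apart. A further replicate 2 summit inside Slco1b2 scored 5.81. So Slco1b2 had summits of both lists upstream, counted as unshared by a single base.

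Slco1a4 (a carrier of bile acids and drugs) had no summit of either replicate within 50 kb. Slco1a1 (steroid sulfates and bile acids) had a replicate 2 summit 13725 bp upstream that scored 4.11. Slc22a7 had a replicate 1 summit 48628 bp away that scored 7.05, and it lies in the promoter window of Zfp318. These 3 genes therefore had no shared region within 50 kb.

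The kidney carriers were Slc22a6 (Oat1), Slc22a8 (Oat3), Slc22a2 (Oct2), Slc22a12 (Urat1, which reabsorbs urate), Slc22a13 (Oat10), Slc22a19 (Oat5), Slc22a22 (a prostaglandin carrier), Slco4c1 and Slco1a6. Slc22a6 was the 1 gene of these 9 with a shared region within 10 kb (11.1%), against 20.6% of all genes. None of the 9 had a shared region inside the gene, against 13.7% of all genes. By the same rough rule a count of 0 among 9 allows up to 33.3%. Within 50 kb of an end the counts were 2 of 6 liver carriers and 3 of 9 kidney carriers, 33.3% of each, against 46.8% of all genes. Slco1a1 and Slc22a7, listed here under liver, are used by both organs, and with them in the kidney list the counts were 2 of 4 liver carriers (50%) and 3 of 11 kidney carriers (27.3%). Moving these genes was planned for the 10 kb window, while its use at 50 kb was chosen after seeing the data. The order of liver carriers and all genes at 50 kb depends on this move. Neither organ's carriers stood above the share of all genes in windows of up to 10 kb around gene ends. At 20 kb the kidney carriers did, with 3 of 9 (33.3%) against 29.7% of all genes, while the liver carriers had 0 of 6.

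The site beside Slc22a6 was the strongest shared region around any carrier. It lies at 8631040 to 8631101 on chromosome 19, 2771 bp beyond the end of Slc22a6 (8617996 to 8628299, plus strand), the basolateral carrier that takes up para-aminohippurate into proximal tubule cells. It scored 37.9 in replicate 1, rank 170 of 21283 summits, and 37.3 in replicate 2, rank 165 of 24097. The same region is 19235 bp downstream of Slc22a8, so the pair of neighbouring kidney anion carriers shares it. Slc22a6 was the nearest protein-coding gene. The summits of both replicates stood 61 bp apart here, so the region was lost when sharing needed 50 bp. The remaining summits within 50 kb of Slc22a6 and Slc22a8 were all of replicate 2, and they scored 4.93, 3.19, 5.29 and 4.53 along the chromosome. The summit that scored 5.29 lies inside Slc22a6.

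Slco4c1, a carrier of the basolateral tubule membrane, had a shared region 10857 bp downstream of the gene. It scored 4.63 in replicate 1 and 12.9 in replicate 2. Slco1a6, an anion carrier of mouse kidney, had 4 summits of replicate 1 in the gene or within 50 kb, scoring 2.44 to 8.21, and none of replicate 2. Slc22a19 had a replicate 2 summit 18486 bp upstream that scored 11.4, and Slc22a12 had a replicate 2 summit 34361 bp upstream that scored 5.29. Slc22a2, Slc22a13 and Slc22a22 had no summit of either list within 50 kb. Of the 9 kidney carriers, 6 were thus reached by a single replicate or by neither. This was common among all genes too. Of those, 52.1% had no shared region in the gene or within 50 kb, and 20.6% had no summit of either list.

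**Figure D3:**
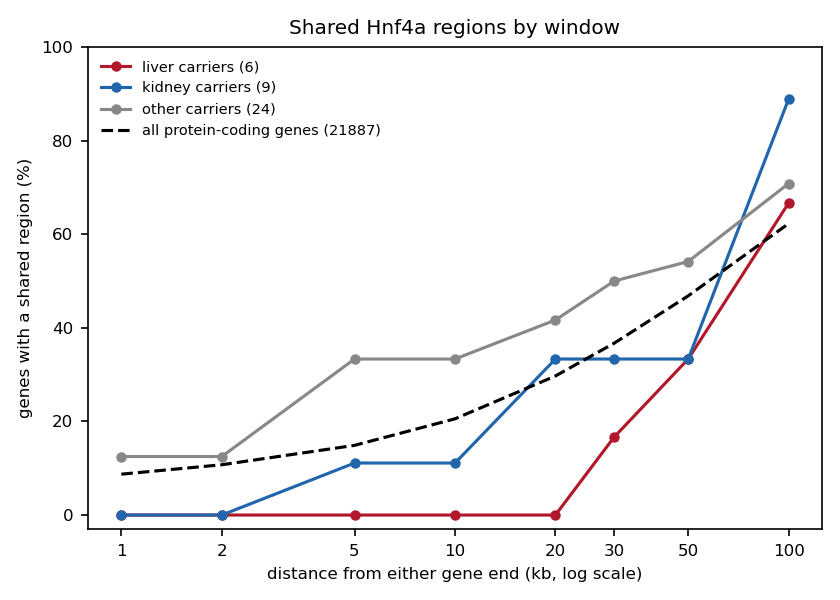
Share of genes with a shared Hnf4a region (vertical, percent) against the distance allowed from either gene end (horizontal, kb, log scale) for 6 liver carriers, 9 kidney carriers, 24 other carriers and all protein-coding genes. Liver carriers stay at 0% up to 20 kb, and at 100 kb the shares are 66.7% for liver carriers, 88.9% for kidney carriers and 62.3% for all genes.

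At 100 kb, where 62.3% of all genes had a shared region, 4 of 6 liver carriers and 8 of 9 kidney carriers had one. With 6 and 9 genes, each gene moves these shares by more than 10 percentage points. The median distance from the gene body to the nearest shared region was 60374 bp for liver carriers, 80092 bp for kidney carriers and 7799 bp for the other 24 carriers, against 55331 bp over all genes. Bodies plus 50 kb held 2.55 shared regions per Mb at liver carriers, 1.50 per Mb at kidney carriers and 6.52 per Mb at the others, against 4.51 per Mb over all genes. The organs' lists gave 2 distinct shared regions each, so their densities rest on few sites. The density of the others rests largely on a few loci. Of their 25 shared regions, 6 lay around Slco2a1, 5 around Slc22a23 and 3 around Slco3a1. Their median distance counts 9 of the 24 genes as 0 bp, because a shared region lies inside them.

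Carriers outside both organ lists held 8 of the 9 genes with a shared region within 10 kb, and 8 of these 24 is 33.3%, against 20.6% of all genes. The organ lists were drawn up by hand, and a gene outside them may still be used by liver or kidney. Slc22a5 and Slc22a4 are among these 8, and counts with them in an organ list were not made. The contrast between organ lists and other carriers therefore depends on how the lists were drawn. The carnitine and ergothioneine carriers form a neighbourhood on chromosome 11. Slc22a5 is followed by Slc22a21 (Octn3, a carnitine carrier of mouse testis) and Slc22a4 (Octn1, the ergothioneine carrier). The Slc22a5 region lies 96 bp outside the gene end, at the promoter printed above. A further region at 53980318 to 53980350 scored 4.16 in replicate 1 and 12.9 in replicate 2. It straddles the upper end of Slc22a21 and lies 2781 bp from the nearer end of Slc22a4, so both genes are counted through 1 region. Both regions of this neighbourhood scored higher in replicate 2. A replicate 1 summit just inside the upstream end of Slc22a4 scored 8.81 and had no counterpart.

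Slc22a16, a carnitine carrier of the testis in humans, had a shared region inside the gene at 40573300 to 40573340 on chromosome 10, 2958 bp after its start site. It scored 21.0 in replicate 1 and 16.9 in replicate 2, second to the site beside Slc22a6 by the worse of both ranks. Slc22a18, an imprinted gene, had a shared region 2373 bp after its start site (8.42 in replicate 1 and 10.2 in replicate 2). Slc22a26, a gene of the mouse anion carrier array on chromosome 19, had a shared region 803 bp after its start site (15.2 and 19.9). All 3 regions lie inside the gene near its start.

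With strand known from the promoter table, 2 of 34 carriers had a shared region within 1 kb of a start site (5.88%), Slc22a5 and Slc22a26. The share was 8.83% of the 17492 protein-coding genes in that table. Each replicate alone gave the same 2 carriers, against 18.2% of genes in replicate 1 and 17.6% in replicate 2. With a count of 2 and no test, 5.88% against 8.83% for shared regions is not read as a difference. By single lists the gap was wider, 5.88% against 18.2% and 17.6%, but on the same 2 carriers.

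Slco2a1 (chromosome 9, 103007061 to 103096002, plus strand), the carrier that clears prostaglandins from tissue, had the most shared regions of any carrier within 50 kb of an end, 6. They lie upstream of the gene except for a region inside it. Nearest to the gene is the region 2686 bp upstream (12.1 in replicate 1 and 8.86 in replicate 2). Regions at 10730 bp upstream (8.76 and 4.82) and 11349 bp upstream (19.1 and 15.5) form a close pair. Those farther upstream lie at 36074 bp (12.5 and 17.2) and 39692 bp (9.98 and 8.16). The region inside Slco2a1 scored 11.2 in replicate 1 and 10.8 in replicate 2. Slco2a1 was the nearest gene to each of them.

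**Figure D4:**
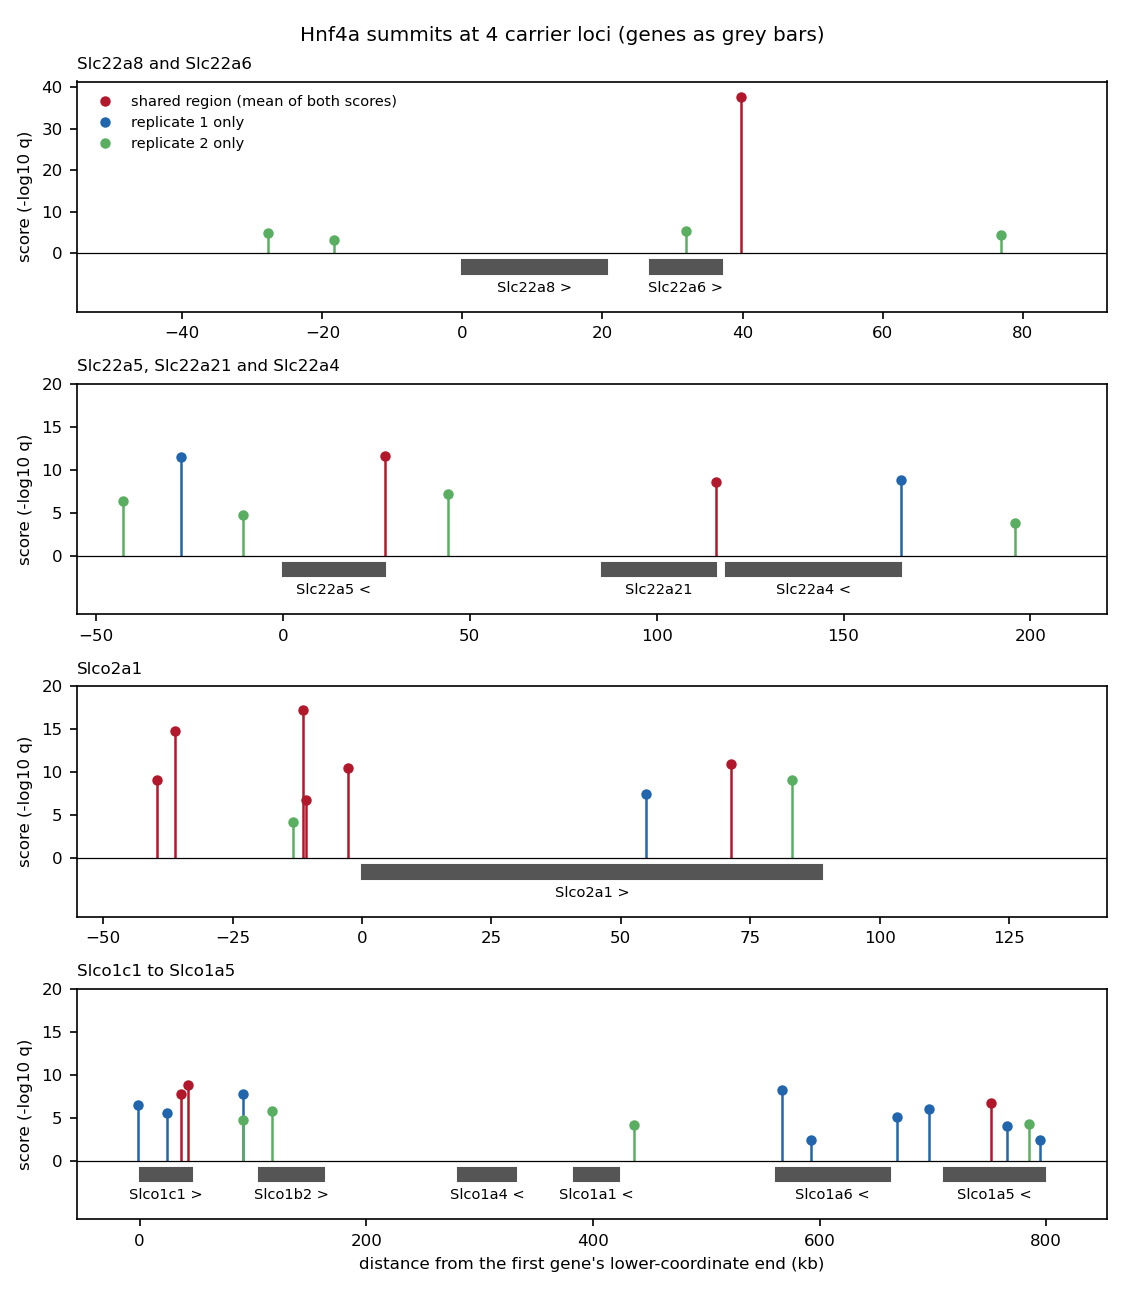
Summit scores (vertical, read as −log10 q) at 4 carrier loci against the distance from the lower-coordinate end of the first gene (horizontal, kb). Shared regions are in red at the mean of both scores, replicate 1 summits in blue and replicate 2 summits in green. Grey bars are the carrier genes, with arrows for strand where the promoter table gives it, and the red marks crowd upstream of Slco2a1 while Slco1a4 and Slco1a1 have none.

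Slco1c1, the thyroxine carrier of the blood-brain barrier, had 2 shared regions inside the gene. They lie toward its downstream end, 36168 and 42508 bp after the start site. The first is 9655 bp from that end (7.91 in replicate 1 and 7.49 in replicate 2) and the second 3315 bp from it (6.88 and 10.6). Slco1c1 is joined to Slco1b2 by a gap of 59274 bp, and the shared regions of this pair fell in Slco1c1 alone. Elsewhere in the Slco1 array, Slco1a5 had a shared region 2862 bp after one of its start sites that scored 9.44 in replicate 1 and 3.86 in replicate 2. No other Slco1a gene had a shared region inside it or within 50 kb of an end.

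Slc22a23 and Slco3a1 are long genes with several internal sites. Slc22a23, an orphan member of 166118 bp, had 3 shared regions inside it, which scored 12.1, 6.43 and 15.3 in replicate 1 and 13.0, 6.73 and 5.57 in replicate 2, in order along the chromosome. Slco3a1, a broadly expressed carrier of 279363 bp, also had 3, which scored 8.69, 9.47 and 5.64 in replicate 1 and 9.24, 7.37 and 6.42 in replicate 2. The Slco3a1 regions lie 67322 to 112562 bp from its nearer end, so this gene is counted in neither the 10 kb nor the 50 kb window. Slc22a3 had 1 internal region (7.39 in replicate 1 and 5.90 in replicate 2). Some other long carriers held no such site: Slc22a22, at 233859 bp the second longest carrier, had no summit of either list, and Slco5a1 (126248 bp) had no shared region inside. Slc22a23, Slco3a1 and Slc22a3 show why the count inside genes and the count near gene ends name different carriers: 5 genes are in both, 5 only in the first and 4 only in the second.

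Of the carriers left, Slc22a17, a receptor for lipocalin 2, had a shared region 12817 bp downstream (10.2 in replicate 1 and 11.5 in replicate 2), which lies in the promoter window of Pabpn1, a nuclear poly(A)-binding protein. Slc22a15, a carrier of zwitterions in humans, had one 29923 bp upstream (8.14 and 11.0). Slco4a1, a thyroid hormone carrier, Slc22a14, a gene of sperm, and the anion carrier array genes Slc22a27 and Slc22a28 had no summit of either list in the gene or within 50 kb. Slco5a1, the testis gene Slco6c1, Slc22a29 and Slc22a30 had replicate 1 summits only, while Slco6d1 and Slc22a20 had unshared summits of both lists. In all, 20 of 39 carriers had no shared region in the gene or within 50 kb (51.3%), against 52.1% of all genes. Of those, 8 had no summit of either list (20.5% of carriers), against 20.6% of all genes.

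Joining genes less than 100 kb apart gave 25 clusters, of which 8 held 2 or more genes and 22 genes in all. A shared region within 10 kb of a member's end was present in 7 of 25 clusters. No such share was given for clusters of all genes, so whether this count is high or low was not tested. The largest, Slc22a19 to Slc22a30 on chromosome 19 (7673075 to 8405111), held 6 anion carriers over 732037 bp with 1 shared region, that of Slc22a26. The pair Slco1a4 and Slco1a1 and the pair Slc22a14 and Slc22a13 held none. In the Slco1a6 and Slco1a5 pair, replicate 1 placed 7 summits and replicate 2 placed 2, and 1 region was shared. How well reads can be placed among these similar gene copies was not tested.

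Some genes sit near the limits used. At 10 kb, the Slco1c1 region at 9655 bp was counted, while regions of Slco2a1 at 10730 bp and of Slco4c1 at 10857 bp were not. At 100 bp, Slco2a1 summits 83 bp apart were shared, and the Slco1b2 summits 101 bp apart and those of Slco6d1 119 bp apart were not. At 50 kb, a Slc22a23 region at 49468 bp was counted, and the region nearest to Slc22a7, at 58157 bp, was not. At the 100 kb gap, Slc22a27 and Slc22a28 (95440 bp apart) were joined, and Slco1b2 and Slco1a4 (118791 bp apart) were not.

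Carriers that work beside these families were listed as 15 genes for bile acid uptake and organic ion efflux. A shared region within 10 kb of an end was found for 3 of the 15 (20%), against 20.6% of all genes. Inside the gene the count was 4 of 15 (26.7%), against 13.7% of all genes, and within 50 kb of an end it was 9 of 15 (60%), against 46.8%. The 4 genes with an internal region are 65613 to 225165 bp long, against a median of 17169 bp over all genes. No density is given for this list, so its shares are not corrected for length. Abcb1a, Abcb1b and Abcb4 are neighbours on chromosome 5 with overlapping 50 kb windows, so their counts may rest on the same regions. Abcc4, an exporter of conjugates and cyclic nucleotides, had one at 1953 bp (20.2 in replicate 1 and 16.3 in replicate 2) and 7 inside the gene. Abcc6, a liver and kidney ATP-dependent exporter, had one at 3026 bp (15.0 and 15.1), and Abcb4, which moves phosphatidylcholine into bile, had 2, the better at 4737 bp (6.28 and 11.9). Abcb11, the canalicular bile salt export pump, had 4 shared regions within 50 kb of an end, and Abcb1b, a multidrug exporter, had 3. Slc10a1 (Ntcp), the main hepatocyte bile acid importer, and Slc51a and Slc51b, the subunits of the basolateral bile acid exporter, had no shared region within 50 kb. Abcc2, Abcc3 and Slc47a2 had none there either, while Slc10a2 and Slc47a1 had 1 each.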

How the data were processed

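ChIL-seq for Hnf4a was read from 2 lists of 1-bp summits. Per the submitters' processing notes, fastp 0.23.4, HISAT2 2.0.5 and MACS2 2.2.9.1 were used with build mm10. The authors deposited a score for each summit, taken as −log10 q because the lowest are 2.04 and 2.01. These lowest scores alone cannot tell a q-value from a p-value, so that reading was not tested. Each library has a list of its own. A control library and removal of duplicates are not given in the sources used here. Read depth per sample is unknown. Per the file contents, peak names put both libraries in 1 cell lot, so the spread between them may be technical.

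Summits within 100 bp of the next were joined into regions. A region was placed by its midpoint, inside a gene or within 10 kb or 50 kb of either end, and genes less than 100 kb apart were clustered. Positions in the deposited lists (another unit, bp) are mm10, and gene positions are RefSeq GRCm38.p6, without exons or introns. Start sites, strand and sequences came from RefSeq promoter windows of GRCm38.p6. The named genes are all members with a shared region inside or within 10 kb, liver and kidney carriers, members of clusters and, by name, the rest. One gene of the rule is counted in the totals but not reported here by itself. Members and lists were chosen with earlier results of these data known, so counts are given beside those of all genes with no test. Counting code was tested on simulated data. Alternatives covered the joining distance, score minimum, window, organ lists and each replicate alone. Python 3.11.15, numpy 2.4.6, pandas 2.3.3, scipy 1.17.1 and matplotlib 3.10.9 were used.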

Additional observations from a re-analysis of the deposited data

How the results depend on the processing

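The 9 carriers with a shared region within 10 kb became 5 with the top 10000 summits of each list. The genes lost were Slc22a5, Slc22a21, Slc22a4 and Slco1c1, so the whole neighbourhood on chromosome 11 and the printed promoter depend on summits beyond that rank. The 9 carriers became 3 with a 1 kb window and 18 with a 50 kb window, and single replicates gave 10 to 11. The share of all genes moved too, to 8.73% at 1 kb and 46.8% at 50 kb. Within 10 kb it was 39.4% by replicate 1 alone and 41.9% by replicate 2 alone. For the top 10000 summits no share of all genes is given. The 10 carriers with an internal region became 13 to 17 with single replicates. Among all genes the share moved too, from 13.7% for shared regions to 26.3% by replicate 1 and 28.4% by replicate 2. The 18 carriers within 50 kb became 11 with the top 10000 summits and 25 to 27 with single replicates. Among all genes 69.3% were reached at 50 kb by replicate 1 and 72.4% by replicate 2. Liver carriers stayed at 0 in each alternative run, windows of 1, 5 and 20 kb included, except the 50 kb window, which gave 2; the wider series of windows gave 1 at 30 kb and 4 at 100 kb. The 1 kidney carrier became 0 when sharing needed 50 bp or with a 1 kb window, 3 with windows of 20 or 50 kb, and 1 to 2 with single replicates; without replicate 2 the added gene was Slco1a6. The share of replicate 2 summits with a counterpart moved from 43.3% to 57.6% when only bodies plus 10 kb were counted. Of all replicate 2 summits, wherever they lie, 38.2% had a counterpart, and no share for the bodies plus 10 kb of all genes is given. The cause of these moves was not tested beyond what each setting's wider or narrower criterion gives. The remaining alternatives stayed within 1.5 times the counts or within the intervals given. Summit lists without widths or read counts limit every value. No paired analysis was possible because there is 1 group.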

Other observations

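The annotation also holds 2 family genes that are not protein-coding. Slco6b1, a long non-coding RNA gene on chromosome 1 between Slco4c1 and Slco6c1, had no summit inside it and 2 replicate 1 summits within 50 kb. Slc22a13b, a transcribed pseudogene beside Slc22a13 on chromosome 9, had no summit of either list within 50 kb.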
